A study of Homo sapiens with 2 samples.

Results

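DDX18 is a nucleolar RNA helicase of the DEAD-box family, and the RNA it contacts was mapped by iCLIP (crosslinking of protein to RNA with ultraviolet light, followed by immunoprecipitation and sequencing). The genes described here are 10 genes of heterochromatin and the nuclear lamina, the protein mesh under the inner nuclear membrane: CBX5, CBX1, CBX3, TRIM28, SETDB1, UHRF1, HMGA1, LMNB1, LMNB2 and LBR. They were chosen by name, and a peak was counted for a gene when the deposited list called it in that gene. Of the 10 genes, 8 had a peak, and together they held 45 of the 16079 entries called in protein-coding genes.

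The single group comprised 2 samples of H9, an established human embryonic stem cell line, with expression of 3XFlag-DDX18, that is DDX18 carrying a triple FLAG tag. The cells were in normal culture on inactivated mouse fibroblast feeders and were irradiated once with 160 mJ/cm2 at 254 nm. No promoter, clone number or untagged control is given in the labels, and no control sample was used here. The 2 samples share 1 peak list with a single height per peak, so no value below has an error between samples, reads per sample are unknown here, and no comparison between conditions was made. Heights are the authors' values and carry no scaling to depth or RNA abundance, so contact with DDX18 and abundance of the RNA cannot be told apart. Of 6 stem cell markers 4 had a peak (66.7%), beside 31.0% of 20056 protein-coding genes. LIN28A and DNMT3B had 16 peaks each, and POU5F1 and SOX2 had none. Of 5 genes listed as fibroblast markers, 4 had a peak (80%, beside 31.0%), the highest 39 in THY1, and VIM had none. Whether their RNA came from H9 or from the feeder cells cannot be told here, so they do not show feeder RNA. The part of mouse RNA in the values below was not tested.

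Heterochromatin is compact, mostly silent chromatin marked by methylation of histone H3 at lysine 9. HP1 proteins, encoded by CBX5 (HP1 alpha), CBX1 (HP1 beta) and CBX3 (HP1 gamma), read that mark, and SETDB1 is a methyltransferase that lays it down when the corepressor TRIM28 (KAP1) brings it to DNA. B-type lamins (LMNB1, LMNB2) and the lamin B receptor LBR, which binds HP1 as well, hold heterochromatin at the nuclear edge. In all of these genes the values concern the RNA of the gene, not the binding of its protein.

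Peaks were frequent in the list and uneven within it. A peak was called in 8 of 10 genes (80%, exact 95% binomial interval 44.4 to 97.5), beside 31.0% of the 20056 protein-coding genes of the RefSeq table, a background that includes unexpressed genes. At least 3 peaks were found in 7 of 10 genes, beside 8.51% of protein-coding genes, and a peak of height 10 or more in 6 of 10, beside 8.78%. The genes with a peak had a median of 6 peaks, against 1 over all protein-coding genes with a peak. Median peak height was 11 (quartiles 9 and 23, range 5 to 56) in the heterochromatin and lamina genes and 8 (quartiles 6 and 12) in all protein-coding genes. HMGA1 and TRIM28 held 66.6% of the summed height of 760. Without these 2 genes, the median height was 9 over 27 peaks, close to the 8 of all protein-coding genes. The genes were chosen with results of these data known, so these shares are a description and were not tested.

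**Figure D1:**
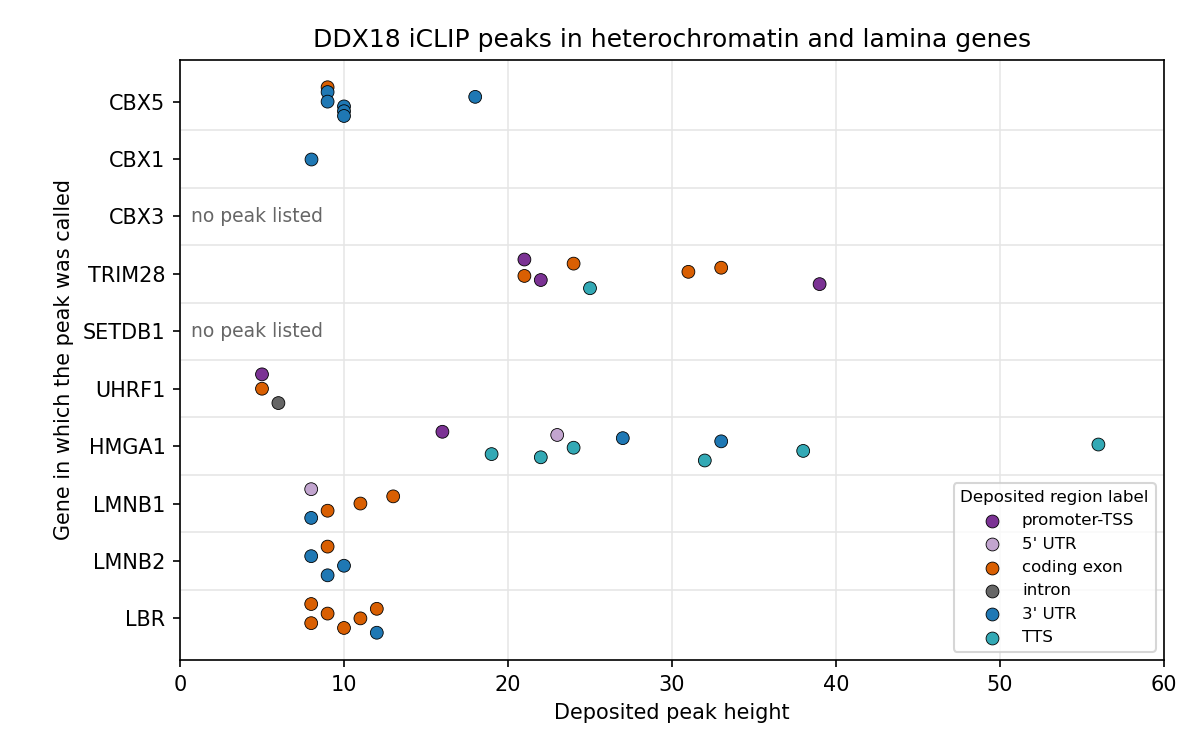
Deposited peak height (x axis, no unit) of each of the 45 peaks, by the gene in which it was called (y axis). Points are single peaks coloured by the deposited region label. HMGA1 (16 to 56) and TRIM28 (21 to 39) lie to the right of nearly all peaks of the other genes, whose highest is the CBX5 peak of 18, and CBX3 and SETDB1 have none.

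Among the HP1 genes, CBX5 stood apart by number of peaks. It had 7 peaks, CBX1 had 1 and CBX3 had 0. In the direction of transcription, the CBX5 heights were 9 in coding exon 3 of 5 and then 9, 18, 9, 10, 10 and 10 in the 3' UTR, the untranslated end of the mRNA. The strongest, with a deposited p of 1e-100, the lowest in the list, lay at positions 54635257 to 54635264 of chromosome 12 (hg19, minus strand). The 6 peaks in the 3' UTR, all in exon 5 of 5, spread over 8685 nt. They formed 2 groups that stood 5986 nt apart, 3 peaks nearer the start of the gene and 3 nearer its end. The CBX5 3' UTR held 88% of the summed height of the gene.

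CBX1 had a single peak of height 8 in its 3' UTR (exon 5 of 5), at positions 46148543 to 46148567 of chromosome 17 on the minus strand, with a deposited p of 6.31e-07. At 25 nt it was the widest of the 45 peaks. By number of peaks, 93.6% of protein-coding genes with a peak had fewer than CBX5, while CBX1 was among the genes with the fewest.

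No peak was called in CBX3. The annotation nevertheless named a CBX3 transcript for 2 peaks, of heights 28 and 21 at positions 26240231 to 26240241 and 26240308 to 26240311 of chromosome 7. Both lay on the minus strand and were called in HNRNPA2B1, an hnRNP gene that neighbours CBX3 in the gene table. Their label was promoter-TSS, which covers a stretch around a start site, although CBX3 lies on the plus strand in the RefSeq promoter table. HNRNPA2B1 had 8 peaks in all. The gene table lists 10 copies of CBX3 as pseudogenes, against 5 for CBX1 and 1 for CBX5, and 1 of the CBX3 copies, CBX3P2, had a peak of height 6 that was labelled with the neighbouring gene SMCHD1. Near-identical copies can take reads from each other, and how the authors placed such reads is not given in the sources used here. The absence of CBX3 from the list is therefore uncertain, and a loss of its reads to copies was not tested. HMGA1, with 8 pseudogenes in the gene table, had 10 peaks. SETDB1 had no peak by called gene, by nearest start site or by annotated transcript, and the table lists 0 pseudogenes of it.

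TRIM28 had 8 peaks, 1 at its start and 7 from exon 6 on. In the direction of transcription their heights were 21, 24, 33, 31, 21, 22, 39 and 25. The peak of 21 lay 80 nt from the start site of the gene, and the next 4 in coding exons 6, 8, 9 and 12 of 17. No peak was listed in the 3292 nt from the start-site peak to that of exon 6. From exon 6 on, 7 peaks covered 2815 nt with 150 to 654 nt between neighbours. At 1.2 peaks per kb of gene, TRIM28 was the densest of the 10 genes.

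The 3 peaks of TRIM28 nearest its 3' end carried labels of other genes. The highest, of height 39 at positions 59061607 to 59061610 of chromosome 19 (plus strand, deposited p 1e-100), was labelled promoter-TSS of MIR6807 and lay 44 nt before the start of that microRNA gene, which lies inside TRIM28 in the gene table. The peak of 22 carried the same label at 698 nt from that start. MIR6807 had no peak called in it. Its mature arms are shown because the label of the highest TRIM28 peak comes from this microRNA gene and not from TRIM28. The sequences are RefSeq's on GRCh38.p14, with the seed (bases 2 to 8) in capitals, and neither arm contains the peak.
hsa-miR-6807-5p: gUGAGCCAguggaauggagagg
hsa-miR-6807-3p: cACUGCAUuccugcuuggcccag
The peak of 25 was labelled TTS, a stretch around a transcript end, of CHMP2A. CHMP2A is the gene next to TRIM28 in the gene table, and its own single peak (height 8) lay on the opposite strand.

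HMGA1, which encodes an architectural protein that binds AT-rich DNA, had the most peaks and the highest. Its 10 heights in the direction of transcription were 16, 23, 27, 33, 56, 24, 38, 19, 22 and 32. The peak of 16 lay 37 nt from a start site, and that of 23 in the 5' UTR (exon 2 of 6). The remaining 8 stood at the 3' end, where they held 86.6% of the summed height of the gene. No coding exon of HMGA1 had a peak, and 7818 nt separated the 5' UTR peak from the next.

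The 8 peaks at the 3' end of HMGA1 followed each other at 84 to 242 nt over 1139 nt. The summit of the series, of height 56, lay at positions 34213249 to 34213252 of chromosome 6 (plus strand, deposited p 9e-10). It exceeded the strongest peak of 96.3% of protein-coding genes with a peak and ranked at 225 of 6218. The annotation placed 2 of the 8 in the 3' UTR of HMGA1 (exon 6 of 6) and 1 at the transcript end of HMGA1. The 5 between these were labelled TTS of SMIM29 (C6orf1 in the list), the neighbouring gene. SMIM29 had no peak called in it. All 10 peaks lay on the plus strand, which is that of HMGA1 in the RefSeq promoter table. The gene table lists 8 HMGA1 pseudogenes, and none had a peak.

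**Figure D2:**
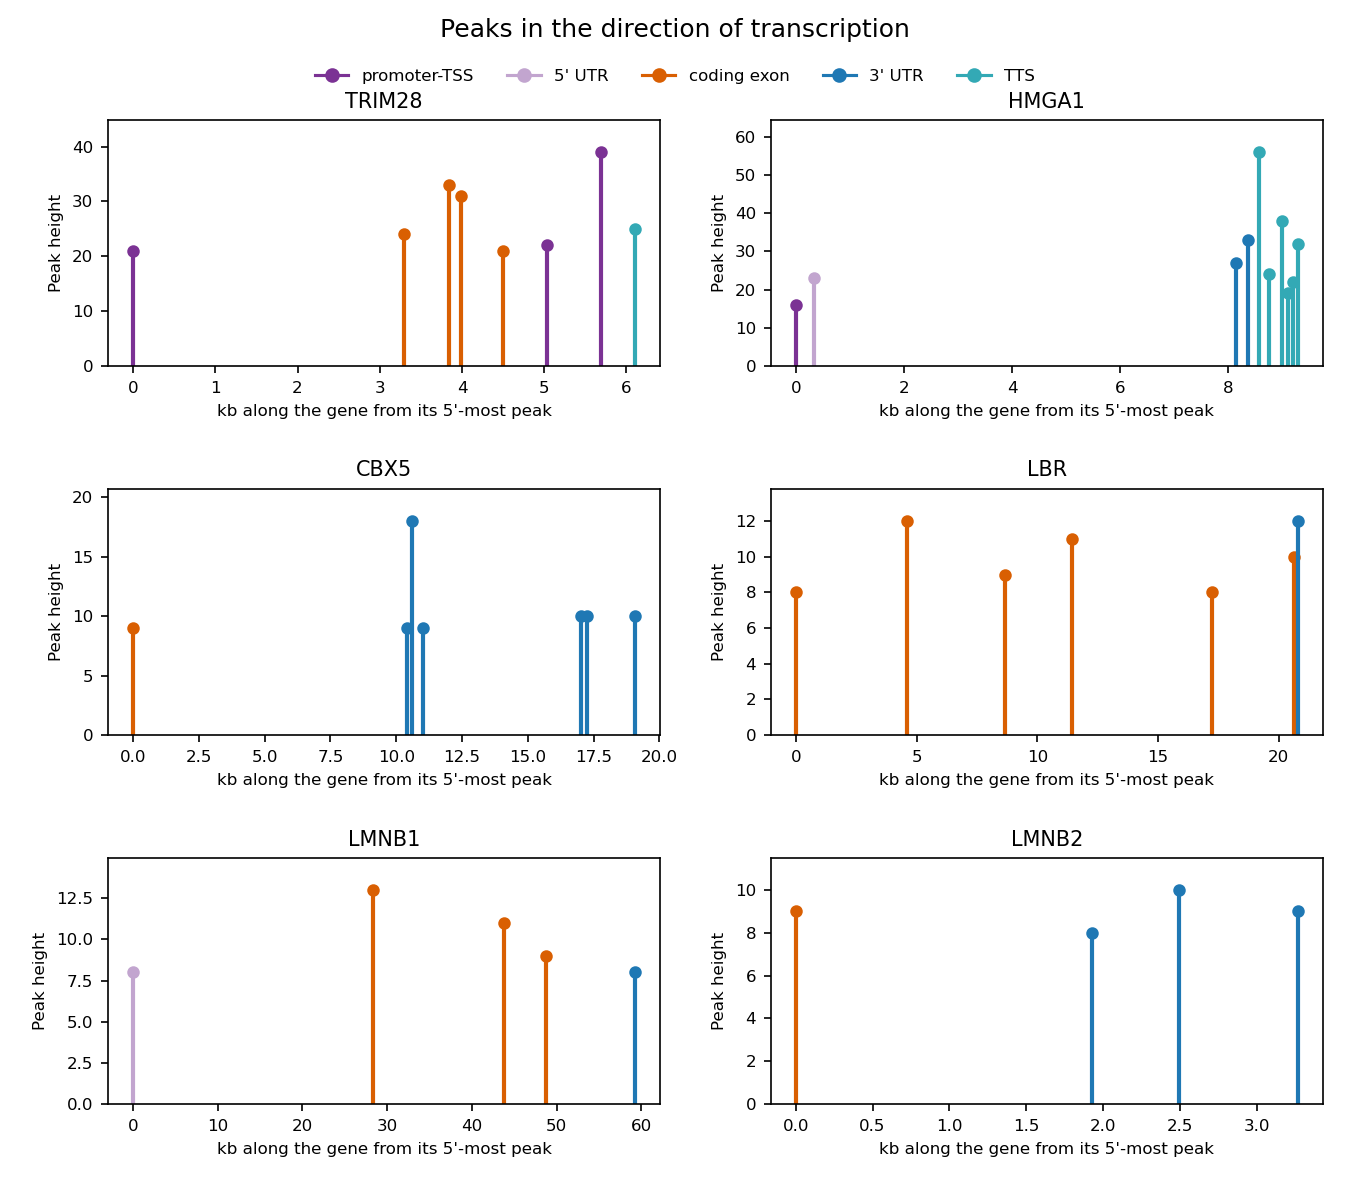
Peak height (y axis, no unit, a scale of its own in each panel) against the distance in kb from the 5'-most peak of the gene (x axis), in the direction of transcription and without removal of introns. Each stem is 1 peak coloured by its deposited region label. Peaks of HMGA1 crowd at the 3' end, those of CBX5 form 2 groups in the 3' UTR, and those of LBR and LMNB1 spread along the gene.

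The lamin genes differed in where their peaks lay. LMNB1 had 5 peaks of heights 8, 13, 11, 9 and 8, in the 5' UTR, in coding exons 3, 7 and 9 of 11 and in the 3' UTR. They spanned 59284 nt, nearly the whole gene (60398 nt in the gene table). The highest, of 13, lay at position 126141300 of chromosome 5 on the plus strand with a deposited p of 2.88e-09. LMNB2 had 4 peaks of heights 9, 8, 10 and 9, in coding exon 9 and then in the 3' UTR (exon 12 of 12). These spanned 3290 nt of a gene of 28794 nt. Its peak of 10 lay at position 2429947 of chromosome 19 on the minus strand (deposited p 4.95e-05). Per kb of gene, LMNB1 had 0.0828 peaks and LMNB2 had 0.139.

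LBR, a receptor of the inner nuclear membrane that is also a sterol reductase, had 7 peaks of heights 8, 12, 9, 11, 8, 10 and 12. The first 6 lay in coding exons 2, 5, 7, 8, 11 and 14 of 14 and the last in the 3' UTR. The 2 peaks of 12, at position 225607047 (exon 5) and at positions 225590866 to 225590870 (3' UTR) of chromosome 1, minus strand, had a deposited p of 3.13e-08. LBR and CBX5 thus had equal numbers of peaks, 7 each, with 1 of 7 at the 3' end in LBR and 6 of 7 in CBX5.

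UHRF1, which reads hemimethylated DNA and methylated H3 lysine 9 and recruits the maintenance DNA methyltransferase, had the lowest peaks. Its 3 heights were 5, 5 and 6, with deposited p-values of 0.0321, 0.0321 and 0.000208. The peaks lay 147 nt from the start site, in coding exon 1 of 16 and in intron 10 of 16. No other peak of the 45 lay in an intron or in a named repeat. The intronic peak, at positions 4946476 to 4946499 of chromosome 19 (plus strand), lay in a LINE element (L1MB3). Of protein-coding genes with a peak, 17.3% had a lower strongest peak than UHRF1.

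By single label, coding exons held 16 of the 45 peaks, 3' UTRs 14, TTS windows 7, promoter-TSS windows 5, 5' UTRs 2 and introns 1. The 3' UTR and TTS labels together covered 21 of 45 peaks (46.7%, interval 31.7 to 62.1), beside 24.5% of the 16079 entries of all protein-coding genes. Such a label was present in 7 of 8 genes, beside 2382 of the 6218 protein-coding genes with a peak. Genes with more peaks have more chances to hold one, and these 8 genes had a median of 6 peaks, against 1. The label of this kind in TRIM28 was that of CHMP2A, and 5 of the 8 in HMGA1 were those of SMIM29. Giving peaks instead to the gene of the nearest start site yielded 21 peaks, with none in CBX1 or LMNB2. These 21 include 3 peaks nearest to a start of LBR that were called in other genes. The share of 3' UTR and TTS labels was then 14.3% (3 of 21). That setting gives a peak to a neighbouring gene whose start is closer, and the share over all protein-coding genes was not computed under it. By annotated transcript the share of 3' UTR and TTS labels was 38.5% (15 of 39), also without a share over all protein-coding genes. Coding exons held 35.6% (21.9 to 51.2), beside 47.4%. By nearest start site they held 57.1% (12 of 21), again without a share over all protein-coding genes under that setting. Introns held 1 (2.22%, 0.0562 to 11.8), beside 17.8%. Start-site and 5' UTR labels covered 7 (15.6%, 6.49 to 29.5), beside 6.74%. Of these 7, the TRIM28 peaks of 22 and 39 carry the start-site label of MIR6807. They lie 5037 and 5691 nt from the start-site peak of TRIM28. Peaks of 1 gene are not independent of each other, so these intervals cover counting error only and are too narrow. With HMGA1 left out, the share of 3' UTR and TTS labels was 37.1% and that of coding exons 45.7%. The share of 3' UTR and TTS labels with both HMGA1 and TRIM28 left out was 44.4% (12 of 27). TRIM28 had only 1 such label among its 8 peaks, and leaving out TRIM28 alone raised the share to 54.1%. Of the 12 labels left without both genes, CBX5 held 6 and LMNB2 3, with 1 each in CBX1, LMNB1 and LBR. A share without CBX5 was not computed. The start-site and 5' UTR share was 7.41% without HMGA1 and TRIM28.

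A peak within 200 nt of an own start site was found in 4 of the 10 genes, HMGA1 (37 nt), TRIM28 (80 nt), LMNB1 (130 nt) and UHRF1 (147 nt), beside 1.98% of protein-coding genes. These 4 peaks were the lowest, or level with the lowest, of their gene, at heights of 16, 21, 8 and 5. Their deposited p-values were 0.0128, 0.015, 6.18e-06 and 0.0321, so only that of LMNB1 was up to 0.01. The share of all protein-coding genes was not computed under that threshold. The annotated transcript belonged to another gene for 8 of 45 peaks (17.8%), all in HMGA1 or TRIM28, beside 9.93% over all protein-coding genes. No position was listed under a further gene.

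**Figure D3:**
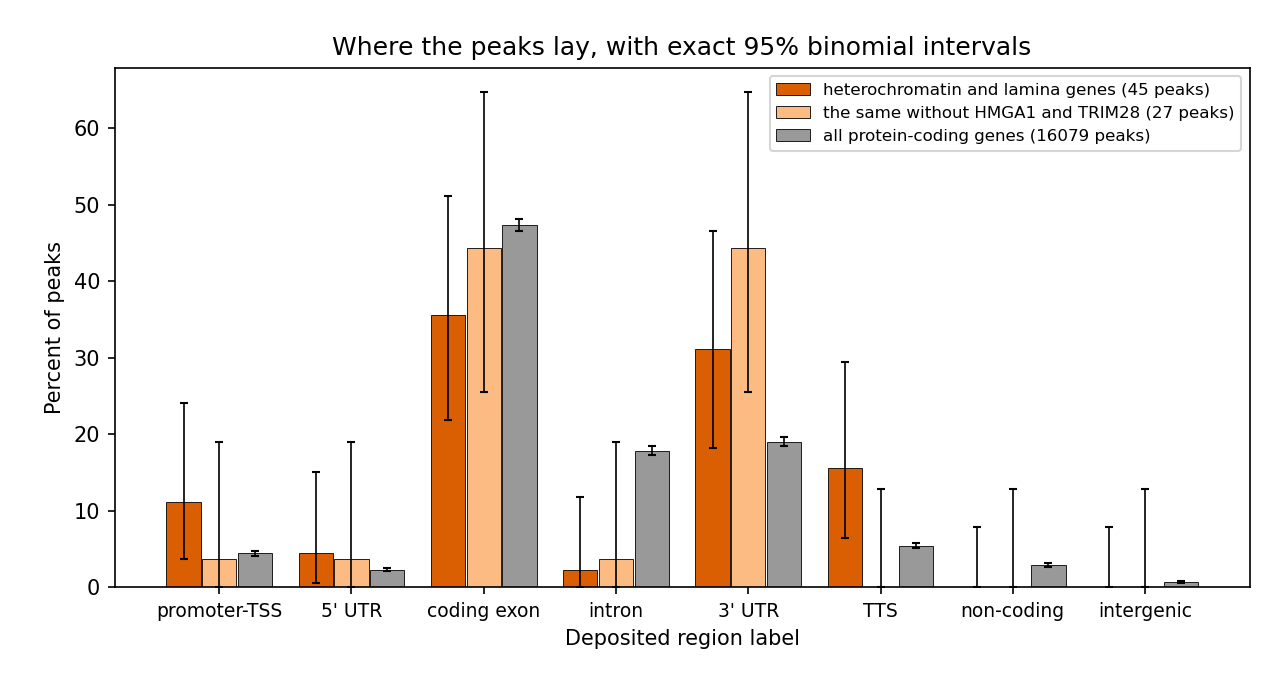
Percent of peaks (y axis) by deposited region label (x axis) for the heterochromatin and lamina genes, the same genes without HMGA1 and TRIM28, and all protein-coding genes. Bars are shares and lines exact 95% binomial intervals. Intronic peaks make up 2.22% in the heterochromatin and lamina genes and 17.8% in all protein-coding genes, and all 7 TTS labels fall away without HMGA1 and TRIM28.

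Each peak also had an expected height, deposited as 1 value per gene, and the heights listed for a gene depended on it. The expected height was 3.65 in TRIM28, 1.91 in HMGA1, 0.27 in LBR and in LMNB2, 0.26 in CBX5, 0.08 in LMNB1, 0.06 in CBX1 and 0.03 in UHRF1. The median over protein-coding genes with a peak was 0.05, and 98.9% of them were below TRIM28. The lowest height listed was 21 in TRIM28 and 16 in HMGA1 but 5 in UHRF1. The same held across the list, where the median lowest peak was 5 in the 2545 protein-coding genes with an expected height up to 0.03 and 17 in the 122 genes over 1 and up to 3. In that last class the strongest peak had a median of 36.5, and the 56 of HMGA1 was above it. In the 84 genes with an expected height over 3 the median strongest peak was 89.5, and the 39 of TRIM28 was below it. All peaks of LBR (8 to 12) and CBX5 (9 to 18) were lower than the lowest peak listed for TRIM28.

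One height had different deposited p-values in different genes. A height of 8 had a p of 6.31e-07 in CBX1, 6.18e-06 in LMNB1, 0.0466 in LBR and 0.0491 in LMNB2. Their expected heights were 0.06, 0.08, 0.27 and 0.27, so the deposited expected height does not order LBR and LMNB2. The HMGA1 peaks of 27, 32, 33, 38 and 56 had the same p, 9e-10, so it did not rank them. The lowest p in the list, 1e-100, was shared by the CBX5 peak of 18 and the TRIM28 peaks of 31, 33 and 39. It did not rank these peaks either, nor place them above the HMGA1 peaks by height. Of the 45 peaks, 37 had a p up to 0.01 (82.2%), beside 84.2% over all protein-coding genes.

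The order of the genes changed when the strongest peak was divided by the expected height, and only LBR and LMNB2 kept their places. By height the order was HMGA1 (56), TRIM28 (39), CBX5 (18), LMNB1 (13), LBR (12), LMNB2 (10), CBX1 (8) and UHRF1 (6). By height over expected height it was UHRF1 (200), LMNB1 (162), CBX1 (133), CBX5 (69.2), LBR (44.4), LMNB2 (37), HMGA1 (29.3) and TRIM28 (10.7). The median of that ratio over the 8 genes was 56.8, against 150 over all protein-coding genes with a peak and a non-zero expected height. UHRF1, first by that ratio, had an expected height of 0.03 and a strongest peak of 6. In all protein-coding genes with a peak and an expected height up to 0.03, the median strongest peak was also 6. The order by height also depended on how peaks were given to genes, since the peaks of 56 and 39 carry labels of SMIM29 and MIR6807. By annotated transcript the strongest peak was 33 in HMGA1 and 33 in TRIM28. By nearest start site it was 23 in HMGA1, 21 in TRIM28 and 9 in CBX5. With no error between samples, neighbours in the order by height or by ratio cannot be separated.

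**Figure D4:**
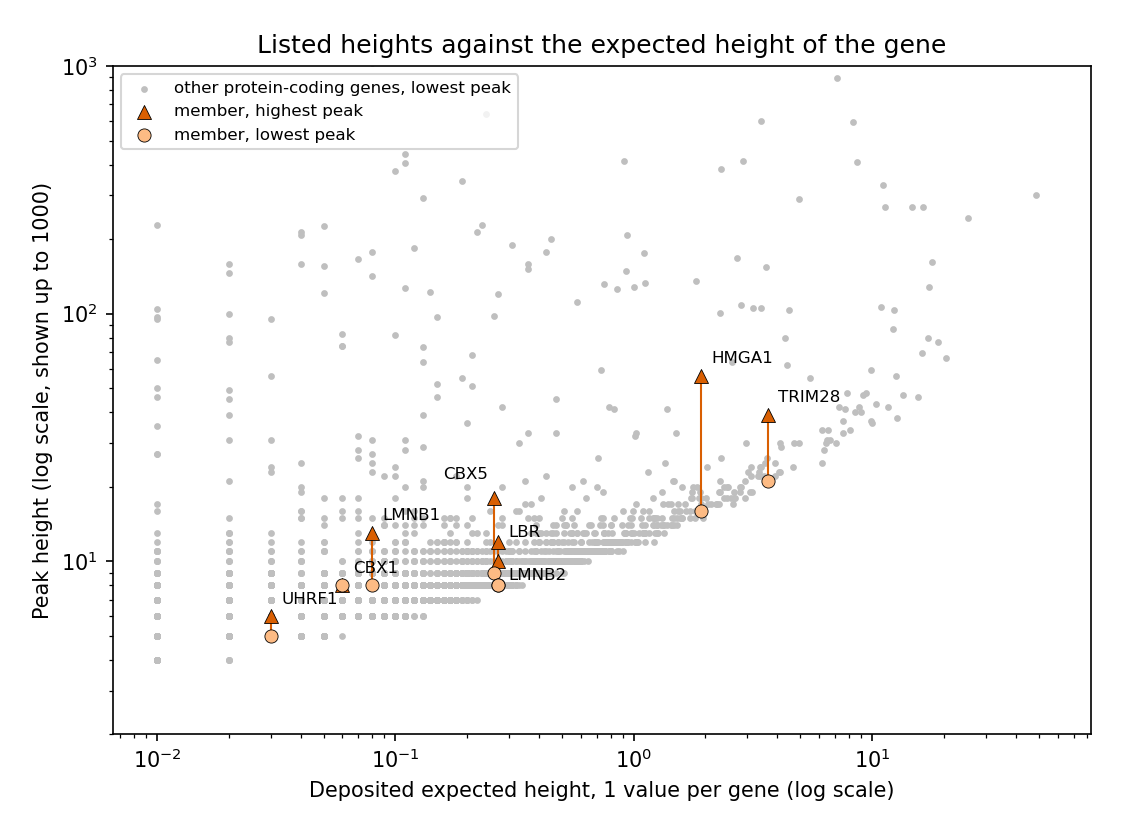
Peak height (y axis, log scale, shown up to 1000) against the expected height of the gene (x axis, log scale). Grey points are the lowest peak of each other protein-coding gene with an expected height above 0, and orange circles and triangles are the lowest and highest peaks of the heterochromatin and lamina genes, joined by a line. The lower edge of the grey points rises with expected height, and HMGA1 (1.91) and TRIM28 (3.65) lie far to the right of UHRF1 (0.03).

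Peaks were also narrower where they were higher. Median width was 5 nt in the heterochromatin and lamina genes and 13 nt in all protein-coding genes. For heights up to 8 it was 16 nt (9 peaks) against 18 nt, for 9 to 12 it was 7.5 nt (16 peaks) against 10 nt, and for heights over 20 it was 4 nt (16 peaks) against 3 nt. Within classes of height the widths were thus closer than over all peaks. Of the 45 peaks, 9 were 1 nt wide.

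Peaks were also called in other genes of the same machinery. Of 22 genes of H3 lysine 9 methylation and heterochromatin, 14 had a peak (63.6%), beside 31.0% of protein-coding genes, with a median strongest peak of 8.5, beside 7. ADNP, a chromatin protein that binds HP1, led with 12 in coding exon 4 of 4. EHMT1, an H3 lysine 9 methyltransferase, had 7 peaks with a highest of 11 in coding exon 21 of 27, and ATF7IP, a partner of SETDB1, had 5 with a highest of 10. ATRX, MORC2 and POGZ also reached 10. SUV39H1 and SUV39H2, the methyltransferases of pericentric heterochromatin, had strongest peaks of 6 and 7, and none was called in EHMT2, DAXX or SMCHD1.

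Of 13 further genes of the lamina and inner nuclear membrane, 8 had a peak (61.5%, beside 31.0% of protein-coding genes), with a median strongest peak of 8.5. SUN1 led with 14 and SYNE2 with 13, both parts of the bridge from the nucleus to the cytoskeleton, and TMPO, a lamina-associated protein, had 1 peak of 10. LMNA, the gene of the A-type lamins, had 3 peaks with a highest of 6, below the 13 of LMNB1 and the 10 of LMNB2. Of 9 other high mobility group genes, 5 had a peak (55.6%, beside 31.0%). HMGA2, the paralogue of HMGA1, had 4 peaks. Their highest, of 13, stood in the 3' UTR (exon 5 of 5) at positions 66357303 to 66357305 of chromosome 12. HMGN2 had 1 of 11 in its 3' UTR. HMGN3 had 2, the higher of which, of 9, was annotated to the antisense gene HMGN3-AS1. The median strongest peak of the 8 heterochromatin and lamina genes with a peak was 12.5, against 7 over all protein-coding genes, and none of these differences between lists was tested.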

How the data were processed

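iCLIP of FLAG-tagged DDX18 in H9 cells gave 1 deposited list of significant peaks for both samples. Per its header, peaks were annotated with annotatePeaks.pl (HOMER) on hg19. FastQC 0.10.1, BWA (no version) and hg19 are named in the submitters' processing notes, while the peak caller and duplicate treatment are not given in the sources. Peak height is the authors' signal, in whole numbers and unscaled. The peak name, deposited by the authors, repeats it beside the called gene, an expected height and a p-value from 1e-100 to 0.05. The deposited distance to the nearest start site, a signed score, changed sign with strand (positive for 97.2% of plus-strand and 2.67% of minus-strand peaks over 1000 nt from their own start), so it is given without sign.

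All 17163 entries were read in Python 3.11.15 (pandas 2.3.3, scipy 1.17.1). Called genes were matched by Entrez identifier to the RefSeq table (6677 of 6695, and all 10 genes described). That table is of GRCh38.p14 and gave names, lengths and neighbours only. All 37 peaks of the 7 genes with a strand in the RefSeq promoter table lay on the strand of their gene. The remaining gene with peaks, TRIM28, was not covered by this check, and its 8 peaks all lay on the plus strand. Medians, ranks and exact 95% binomial (Clopper-Pearson) intervals were computed, which cover counting error only. No test was made, since 1 list of 1 group has no replicate values. Scripts were tested on simulated data. The genes and lists were chosen with earlier results of these data known. All 10 genes are named, with the 3 genes of highest peak in each further list, and others of those lists were added after their values were seen. Alternatives varied the p-value threshold, height minimum, gene assignment, region, shared positions and joining of peaks.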

Additional observations from a re-analysis of the deposited data

How the results depend on the processing

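The count of 8 genes with a peak was 6 to 9 over the 8 alternatives run. It was 6 by the gene of the nearest start site, which dropped CBX1 and LMNB2, 6 with a height of at least 10, which dropped CBX1 and UHRF1, and 9 by the annotated transcript, which added the CBX3 label of HNRNPA2B1 peaks. By nearest start site there were 21 peaks, a median height of 9, 14.3% of peaks with 3' UTR or TTS labels and 57.1% in coding exons. That setting gives a peak to a neighbouring gene whose start is closer, by its construction. By annotated transcript the median height was 10 and the median strongest peak 13. With p up to 0.01 the median height was 12, and with p up to 0.001 it was 15.5. With exonic peaks only it was 10, and the start-site and 5' UTR share 6.25%, since that setting drops start-site labels. A minimum height of 10 left 29 peaks with a median of 21 and a median strongest peak of 15.5. In settings chosen after the data were seen, the median height was 10 without HMGA1, 10 without TRIM28 and 9 without both, which left 27 peaks. The other 54 of 71 values stayed within 1.5 times for counts, the 95% interval for shares, or at the same median. Leaving out shared positions or joining peaks less than 50 nt apart changed nothing among these values. Summed exon length as a divisor was not run. No paired analysis was possible because both samples belong to 1 group and share 1 list, and neither could be left out. Read depth per sample is unknown here.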
